A study of Mus musculus with 2 samples.

Results

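At E11.5, the stage of all embryos here, 333 cells that the study's cell table calls Midgut carried a median of 924, 879, 1073.5 and 1150 gene unique molecular identifiers (UMIs) in the 4 suspensions F0_8, F0_9, F1_1 and F1_mix, while 502 cells called Neuroectoderm/Glia carried medians of 10786, 11392, 12146 and 11749. Both groups are described here together because their gene profiles were the closest of any pair that included Midgut, although their depth differed by more than 10-fold. The members were taken by these names from the cell table: 103, 45, 98 and 87 Midgut cells and 164, 151, 79 and 108 Neuroectoderm/Glia cells in the order of suspensions above, 835 of 5678 cells in all. The measured profiles and depths that define and separate the groups also chose this comparison, and the cell types were clustered on the same genes, so every difference in a gene or a class of genes between them is a description with no test.

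The study put an EGFP cassette with DNA barcodes into mouse embryos with the piggyBac transposase and asked how mosaic the resulting animals were. All cells carry the genotype DNA barcode-linked GFP Tg, with EGFP driven by the CAG promoter. F0_8 and F0_9 are founder generation embryos, F1_1 is an embryo of the F1 generation, and F1_mix is an artificial mosaic, pooled from the cells of 2 embryos of that generation. The 4 suspensions were tagged with lipid-anchored oligos, pooled and captured together as 1 gene expression library, so the spread over suspensions given below is a spread over embryos within a single capture, and both groups of a suspension come from the same embryo or mixture.

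A droplet library from dissociated tissue counts polyadenylated RNA of every compartment that enters the droplet. Messengers for ribosomal proteins, tubulins and the respiratory chain are short-gene, spliced transcripts that accumulate in the cytoplasm. Unspliced precursors of long genes are found in the nucleus, and their introns hold internal runs of adenine at which the capture primer can anneal. Mitochondrial messengers are made and kept inside the organelle. UMI counts of these files do not separate exonic from intronic reads, so spliced and unspliced molecules of a gene cannot be told apart here.

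Neither name matched its defining markers. The 16 midgut and gut endoderm markers, among them Cdx2, Hnf4a, Foxa2 and Cdh1, summed to 0.362 UMIs per 10000 UMIs outside genes starting mt- in Midgut, from 11 UMIs in all, with Cdx1, Cdx2, Vil1, Hnf4a, Sox17, Foxa1, Foxa2, Foxa3, Cldn6 and Gata6 at 0. This placed Midgut at rank 12 of 16 cell types, and the highest level, 19.6, was in Epithelial Cell. The 14 neural stem cell and glial markers, among them Sox2, Pax6 and Fabp7, stood at 4.94 in Neuroectoderm/Glia, rank 14 of 16, at 7.89 in Midgut, which was higher in 4 of 4 suspensions (240 UMIs), and at 57.8 in Neuronal Progenitor. The 10 neuron markers gave the opposite picture, with Neuroectoderm/Glia highest of 16 at 142.3, followed by CNS Neuron at 92.5 and Midgut at 54.8. The names Midgut and Neuroectoderm/Glia are therefore used below only as labels for 2 sets of cells with neuronal transcripts.

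The likeness of profiles was taken across the 2000 genes of largest variance among deeply counted cell types. The log2 profile of Midgut correlated with that of Neuroectoderm/Glia at r = 0.785, with CNS Neuron at 0.738, with Foregut at 0.628 and with Neuronal Progenitor at 0.267. The points are genes of 1 library, which are not independent, and no p-value is attached. Neural crest and Schwann precursor markers stood at 2.57 in Midgut and 3.07 in Neuroectoderm/Glia, ranks 5 and 4 of 16, with the highest level, 5.53, in Ependymal Cell. Several other lists were low in both groups: macrophage markers stood at 0.0329 in Midgut and 0.0361 in Neuroectoderm/Glia, liver markers at 0.0329 and 0.0293, and endothelial markers at 0.164 and 0.0465. Mesenchyme markers stood at 2.73 in Midgut from 83 UMIs and 0.265 in Neuroectoderm/Glia, with 9.86 in barcodes of 1 to 100 UMIs that stand for free RNA. The part of these transcripts in the results below was not tested.

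The 2 groups differed in depth and in mitochondrial share, but far less in the tagging oligos. Genes of the mitochondrial genome took a median of 27.7% of the gene UMIs of a Midgut cell and 2.26% of those of a Neuroectoderm/Glia cell. At least 5% was reached by 325 of 333 Midgut cells and by 11 of 502 Neuroectoderm/Glia cells. The study left out cells at 5% or more, but the deposited percentages count tagging oligos in the total, and on that scale the highest Midgut cell stood at 4.59%. Median counts of a cell's own tagging oligo were 13211, 13739, 17531 and 17483 in Midgut and 14856, 16320, 20071 and 24200 in Neuroectoderm/Glia. The oligo median was lower in Midgut in 4 of 4 suspensions, by a log2 difference of -0.27 ± 0.14 (SD, n = 4), with a two-sided exact permutation p of 0.13, which is the smallest that 4 pairs allow.

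Counted per cell, the transcripts of the mitochondrial genome were as numerous in Midgut as in Neuroectoderm/Glia. A Midgut cell held 298.7 such UMIs on average and a Neuroectoderm/Glia cell 278.1, so Midgut stood at 107% of the other group, and at 120%, 99.5%, 109% and 100.2% in F0_8, F0_9, F1_1 and F1_mix. These 13 genes encode core subunits of the respiratory chain and the ATP synthase. Among the most counted, mt-Co3 gave 60.3 and 57.1 UMIs per cell, mt-Cytb 54.0 and 49.8, mt-Co2 45.4 and 44.4, and mt-Atp6 47.0 and 41.1, in Midgut and Neuroectoderm/Glia respectively. The 13 genes ranged from 86.4% for mt-Nd4l to 127% for mt-Nd6, the one messenger coded on the opposite strand of the mitochondrial genome, and 10 of them stood at 100% or more.

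Protein-coding genes of the nucleus were at 7.89% in the same comparison, with 909 UMIs in a Midgut cell against 11525. The suspensions gave 6.69%, 6.38%, 7.59% and 9.67%. Of the 3545 nuclear genes with enough counts to enter the comparison, the median gene stood at 10.6% of its UMIs per Neuroectoderm/Glia cell, the lowest 10% of genes were under 1.79% and the highest 10% were above 24.5%. The share therefore differed over a wide range between genes of the same cells. Only 12 of the 3545 genes reached 100%: Pax3, Taco1, Eya2, Svil, Gm26992, Thsd7b, Gsg1l, Tspan18, Rhbdl3, Kcnmb2, Wwc1 and Tspan9.

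**Figure D1:**
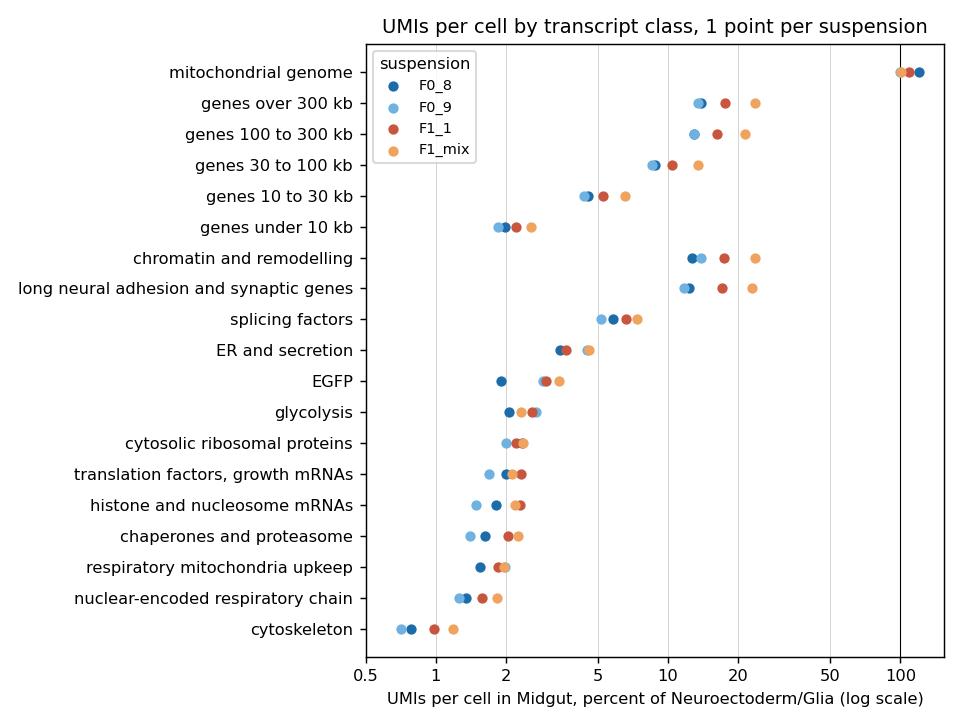
UMIs per cell in Midgut as a percentage of UMIs per cell in Neuroectoderm/Glia (horizontal, log scale) for classes of transcripts, with 1 point for each of the 4 suspensions. The mitochondrial genome lies at 99.5% to 120%, genes over 300 kb at 13.5% to 23.6%, genes under 10 kb at 1.86% to 2.58% and the cytoskeleton list at 0.709% to 1.19%.

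To compare composition apart from depth, levels were expressed as UMIs per 10000 outside mt- genes, and a gene was called higher or lower in Midgut when the log2 difference averaged at least 1 in size and had the same sign in 4 of 4 suspensions. By this rule 1098 of 3545 genes were higher (31.0%) and 855 were lower (24.1%), and 1592 were not called. Without F1_mix, the suspension with the most Midgut UMIs, fewer genes entered and the counts were 721 and 559. All Midgut values lay above all Neuroectoderm/Glia values for 1016 of the higher genes, and below them for 847 of the lower genes. The median over all 3545 genes was +0.46, so a gene that simply kept pace with the typical gene sits above 0 on this scale. Scaling by trimmed means moved that median by -0.41 and turned the split into 674 higher and 1182 lower genes. At the edge of the rule, Fbxo11 (1.001) and Rhoa (-1.001) were just inside, and Rlf (0.998) and Gm16286 (-0.998) were just outside.

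The length of a gene separated the higher from the lower calls. The genes called higher had a median length of 123 kb, those called lower 7.73 kb, and all genes that entered 52.6 kb. Of 601 genes under 10 kb, 504 were lower and 14 higher, with a median log2 difference of -1.93. Of 694 genes between 10 and 30 kb, 280 were lower and 45 higher, and their median was -0.74. From 30 to 100 kb the calls turned, with 365 higher and 65 lower of 1120 genes and a median of +0.66. Between 100 and 300 kb, 467 of 760 genes were higher and 5 lower (median +1.16), and over 300 kb 203 of 364 were higher and 0 lower (median +1.14). The last pair of bins did not separate further.

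**Figure D2:**
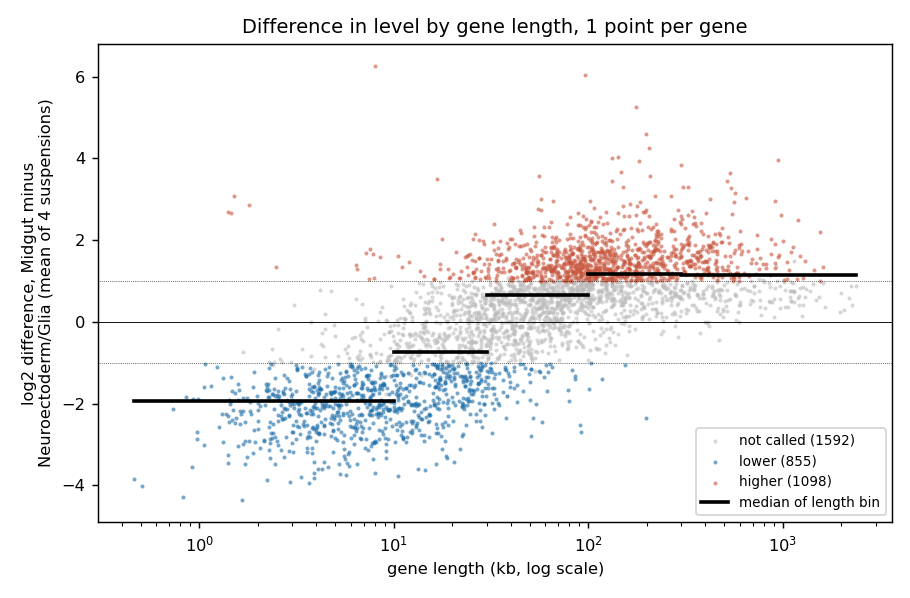
Mean log2 difference in level, Midgut minus Neuroectoderm/Glia, over 4 suspensions (vertical) against gene length in kb (horizontal, log scale), with 1 point for each gene that entered and has a length. Black bars are the medians of the 5 length bins, which run from -1.93 under 10 kb to +1.14 over 300 kb, and dotted lines mark a log2 difference of 1 in either direction.

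The same turn was visible in each suspension. Genes over 100 kb supplied 49.7%, 49.1%, 47.5% and 48.5% of the UMIs outside mt- genes in Midgut, against 24.9%, 23.8%, 21.3% and 21.0% in Neuroectoderm/Glia. Genes under 10 kb supplied 10.4%, 10.4%, 11.1% and 10.3% in Midgut, against 34.9%, 35.9%, 38.1% and 38.5%. Neither class overlapped between the groups in any suspension. Cell by cell the shares overlapped. The share from genes over 100 kb ran from 30.2% to 62.7% in Midgut cells, with a median of 48.1%, and reached 46.7% in Neuroectoderm/Glia cells, and 332 of 333 Midgut cells lay above the value that 10% of Neuroectoderm/Glia cells exceeded, 31.9%.

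Counted per cell, genes over 300 kb stood at 17.0% of the Neuroectoderm/Glia count, genes of 100 to 300 kb at 16.2%, of 30 to 100 kb at 10.7%, of 10 to 30 kb at 5.41% and under 10 kb at 2.28%. Within some length bins the difference also moved with the number of exons. Among genes of 10 to 30 kb, the median log2 difference was -1.42 for 136 genes with at most 5 exons, -0.74 for 451 genes with 6 to 15 exons and +0.42 for 104 genes with over 15 exons. From 30 to 100 kb the order was not kept, with +0.42, +0.34 and +0.93. Over 300 kb the medians were close together, from +1.03 with at most 5 exons to +1.19 with over 15. Expression level, length and exon number are themselves related across genes, and their separate parts were not tested.

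Cytosolic ribosomal protein genes were lower almost throughout. Their summed level was 280, 258, 265 and 225 per 10000 in Midgut and 792, 819, 906 and 917 in Neuroectoderm/Glia, a log2 difference of -1.74 ± 0.22 (SD, n = 4). Of 81 members that entered, 79 were called lower (97.5%) and 0 higher, against 24.1% lower over all genes and 83.9% over all genes under 10 kb, which is the length of most of this list (median 3.17 kb). Rps7 of the small subunit stood at 4.45, 4.99, 4.61 and 3.73 in Midgut and 19.7, 20.2, 21.1 and 21.4 in Neuroectoderm/Glia (-2.19 ± 0.22), with no overlap, and Rpl13 of the large subunit differed by -1.46 ± 0.39. The 2 members without a call were Rps15 (-0.74 ± 0.26) and Rpl36a (-1.05 ± 0.92), and the most extreme was Rpl10 (-2.96 ± 0.17). Free RNA was profiled from barcodes of 1 to 100 UMIs, where ribosomal protein genes held 19.2%. As read from globin transcripts, it made up an estimated 2.54% to 5.01% of Midgut UMIs and 0.519% to 0.623% of Neuroectoderm/Glia UMIs. With it subtracted, the difference was -2.17. Both results depend on the barcodes chosen. In barcodes of 100 to 300 UMIs, globins stood at 36.9 per 10000 against 218. Ribosomal protein genes stood there at 868 against 1920. The subtraction was not run with that profile.

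Translation factors and related growth messengers were called lower in 14 of 20 members (70.0%, against 24.1% of all genes), with a summed difference of -1.88 ± 0.22. Eef1a1, which delivers aminoacyl-tRNA to the ribosome, stood at 9.82, 7.80, 11.52 and 8.23 in Midgut and 39.6, 42.5, 47.4 and 48.4 in Neuroectoderm/Glia (-2.25 ± 0.27). Tpt1, a translationally controlled growth messenger, differed by -2.53 ± 0.37. Glycolysis genes were lower in 7 of 9 members (77.8%, against the same 24.1%), with Gapdh at -2.06 ± 0.48 and Pkm at -1.47 ± 0.33. Chaperone and proteasome genes were lower in 18 of 20 members (90%), among them the ubiquitin gene Ubb (-3.09) and the constitutive chaperone Hspa8 (-1.97). The median lengths of these 3 lists were 10.8, 12.2 and 10.7 kb, and over all genes 83.9% were lower under 10 kb and 40.3% at 10 to 30 kb.

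The respiratory chain was split between its 2 genomes. Its nuclear-encoded subunits summed to 45.5, 45.9, 48.5 and 45.9 per 10000 in Midgut and 226, 232, 232 and 241 in Neuroectoderm/Glia, a difference of -2.32 ± 0.05, and 69 of the 73 members that entered were lower (94.5%, against 24.1% of all genes and 83.9% of genes under 10 kb). Cox4i1 of complex IV stood at 1.96, 1.56, 2.30 and 1.53 in Midgut and at 9.67, 10.0, 10.4 and 9.81 in Neuroectoderm/Glia (-2.40 ± 0.23), with no overlap. Per cell, these nuclear-encoded subunits stood at 1.58% of the Neuroectoderm/Glia count, where the mitochondrially encoded ones stood at 107%.

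The 4 respiratory members that were not called included all 3 that are over 30 kb long. These were Ndufs1 (33.2 kb, +0.16 ± 0.61), Ndufa10 (34.3 kb, -0.42 ± 0.36) and Ndufs4 (100 kb, -0.94 ± 0.55), all subunits of complex I. Ndufs8, at 3.91 kb the short one among the uncalled members, stood at -1.15 ± 0.90 from 12 Midgut UMIs. Genes for mitochondrial upkeep, which encode carriers, import factors and matrix enzymes, were lower in 12 of 15 members (80%, against 24.1% of all genes). Their summed difference was -2.02 ± 0.26 and their median length 11.7 kb. Over all genes, 83.9% were lower under 10 kb and 40.3% at 10 to 30 kb.

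Cytoskeletal messengers had the most negative summed difference of the lists described here. They summed to 62.2, 60.6, 76.0 and 72.0 per 10000 in Midgut and 533, 546, 588 and 585 in Neuroectoderm/Glia (-3.06 ± 0.09), and 17 of 19 members were lower (89.5%, against 24.1% of all genes and 83.9% of genes under 10 kb). Tuba1a, the main alpha-tubulin of young neurons, stood at 7.60, 4.37, 7.35 and 8.99 in Midgut and 100, 104, 112 and 114 in Neuroectoderm/Glia (-3.95 ± 0.40). Stmn1, which regulates microtubule assembly, differed by -3.27 ± 0.19, Tmsb4x, which binds monomeric actin, by -2.66 ± 0.50, and Actb by -2.63 ± 0.15. Per cell the list stood at 0.984% of the Neuroectoderm/Glia count, and Tuba1a gave 0.700 UMIs in a Midgut cell against 123.

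Secretory and nuclear protein genes were less uniform. ER and secretion genes, summed at -0.90 ± 0.27, were lower in 10 of 18 members (55.6%, against 24.1% of all genes), 9 of them under 30 kb. Their median length was 10.9 kb, and over all genes 83.9% were lower under 10 kb and 40.3% at 10 to 30 kb. Sec61g of the translocation channel stood at -2.29 and the ER chaperone Hspa5 at -0.17 ± 0.40. Genes for splicing factors were near the total, at 91.6, 86.5, 90.7 and 82.6 in Midgut and 106, 107, 105 and 109 in Neuroectoderm/Glia (-0.28 ± 0.09), and 6 of 26 were lower (23.1%), close to the 24.1% of all genes. Hnrnpk (-2.02 ± 0.72) and the helicase gene Ddx5 (-1.55 ± 0.22) were among them. All 6 lie among the 17 members under 30 kb (35.3%), a smaller share than over all genes under 10 kb (83.9%) or of 10 to 30 kb (40.3%), and 0 of the 9 longer ones were called. Histone and nucleosome genes, of median length 5.45 kb, were lower in 9 of 12 members, all 9 under 30 kb. That is 75%, against 24.1% of all genes and 83.9% of genes under 10 kb. The replacement histones H3f3a and H3f3b stood at -2.66 and -2.72, while Hmga2, a DNA-bending protein gene of 115 kb, was higher at +2.56 ± 0.49 from 40 Midgut UMIs.

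Chromatin regulators formed a list with calls only in the other direction. They summed to 157, 173, 175 and 180 per 10000 in Midgut and 82.7, 79.1, 76.0 and 73.8 in Neuroectoderm/Glia (+1.14 ± 0.15), and 18 of 32 members were higher (56.2%, against 31.0% of all genes) and 0 lower. Among all genes of 100 to 300 kb, 61.4% were higher. Rere, a corepressor gene of 340 kb, stood at 23.1, 23.4, 23.5 and 27.7 in Midgut and 8.51, 7.99, 7.68 and 7.38 in Neuroectoderm/Glia (+1.63 ± 0.20). The other most counted members were not called: the remodelling ATPase gene Chd4 differed by +0.41 ± 0.42, Auts2 by +0.76 ± 0.19 and Kmt2e by +0.03 ± 0.23. The members' median length was 112 kb and their median difference +1.06, against +0.46 over all genes that entered. Per cell the list stood at 17.3% of the Neuroectoderm/Glia count.

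Long neural adhesion and synaptic genes also took a larger share in Midgut. They summed to 636, 601, 594 and 632 per 10000 in Midgut and 345, 326, 265 and 266 in Neuroectoderm/Glia (+1.05 ± 0.19), and 19 of 44 members were higher (43.2%, against 31.0% of all genes and 55.8% of genes over 300 kb) and 0 lower. Dcc, the netrin receptor of growing axons, stood at 69.4, 72.1, 120 and 149 in Midgut and 29.5, 29.1, 30.1 and 31.5 in Neuroectoderm/Glia (+1.70 ± 0.50). Ank3, which anchors channels at the axon initial segment, was higher at +1.26 ± 0.30. The synaptic adhesion gene Nrxn3 (+0.94 ± 0.31) and the catenin gene Ctnna2 (+0.98 ± 0.22) fell just short of the rule. Genes over 100 kb outside this list gave nearly the same difference as the list, +1.11 ± 0.08, so it is not particular to neural adhesion genes by these values.

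Among neuron markers the short members were lower and the long ones mixed. The 10 neuron markers summed to 47.7, 47.8, 55.3 and 61.8 in Midgut and 119, 135, 176 and 158 in Neuroectoderm/Glia, and 6 were lower (60.0%, against 24.1% of all genes). The beta-tubulin gene Tubb3 (10.5 kb) stood at 1.70, 1.87, 2.74 and 4.40 in Midgut and 30.6, 33.0, 39.8 and 37.5 in Neuroectoderm/Glia (-3.76 ± 0.47). The neurofilament genes Nefl (5.23 kb, -3.48 ± 0.57) and Nefm (5.46 kb, -2.94 ± 1.01) and the internexin gene Ina (10.6 kb, -2.10 ± 0.34) were lower too. All 4 neuron markers under 30 kb were called lower, as were 83.9% of all genes under 10 kb and 40.3% of those of 10 to 30 kb. Of the 6 longer ones, Stmn2 at 52.1 kb (-2.36 ± 0.28) and Gap43 at 92.1 kb (-2.68 ± 0.56) were lower (33.3%), against 5.80% of all genes of 30 to 100 kb and 0.658% of those of 100 to 300 kb.

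Map2, a dendritic microtubule-binding protein gene of 267 kb, stood at 16.9, 17.5, 16.2 and 20.7 in Midgut and 14.1, 12.9, 10.8 and 12.2 in Neuroectoderm/Glia (+0.52 ± 0.21). The neuronal RNA-binding protein genes Elavl3 (37.1 kb, +0.49 ± 0.21) and Elavl4 (148 kb, -0.03 ± 0.29) and the migration gene Dcx (77.6 kb, -0.67 ± 0.57) were not called. Stmn2 and Gap43 thus lay with the short markers despite their length. Rtn1, which encodes an ER-shaping reticulon and spans 197 kb, was another, at 3.93, 4.99, 4.39 and 3.92 in Midgut against 25.2, 25.4, 18.8 and 20.9. Rtn1 was singled out after its values were seen, as the member with the lowest percentage per cell among genes of 100 to 300 kb, 1.42%.

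**Figure D3:**
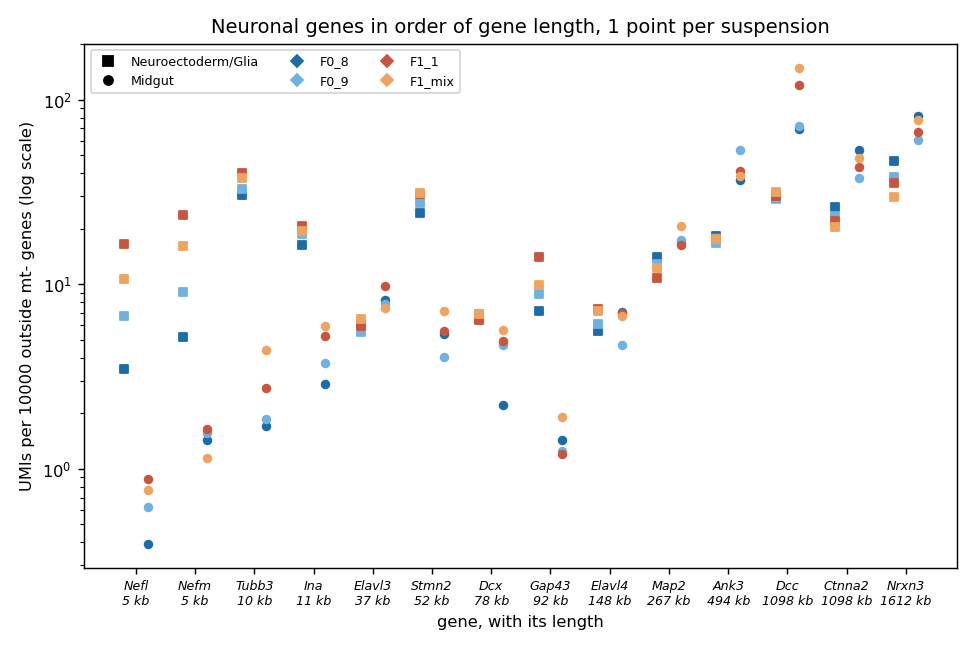
UMIs per 10000 outside mt- genes (log scale) for the 10 neuron markers and the 4 most counted long neural genes, in order of gene length, with Neuroectoderm/Glia as squares and Midgut as circles, 1 point per suspension. Tubb3 falls from 30.6 to 39.8 down to 1.70 to 4.40, Map2 lies at 10.8 to 14.1 and 16.2 to 20.7, and Dcc lies at 29.1 to 31.5 and 69.4 to 149.

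Of the 15 genes with the largest higher calls among those with at least 5 Midgut UMIs in each suspension, 4 are given here in full. Pax3, a neural tube and neural crest transcription factor, stood at 2.23, 1.87, 4.28 and 0.861 in Midgut and 0.0110, 0.0238, 0.0516 and 0.0447 in Neuroectoderm/Glia (+6.03 ± 1.31), from 71 and 17 UMIs. Eya2, a phosphatase and coactivator, stood at 6.03, 7.18, 6.03 and 5.83 against 0.0881, 0.196, 0.237 and 0.171 (+5.25 ± 0.60). Thsd7b stood at 21.2, 20.3, 10.8 and 14.3 against 1.06, 0.636, 1.86 and 0.879 (+3.97 ± 1.04), and Kcnmb2, a potassium channel subunit, at 10.2, 9.36, 6.80 and 8.99 against 0.628, 0.339, 1.32 and 0.522 (+3.83 ± 1.03). In CNS Neuron these 4 genes were at 1.55, 3.39, 5.86 and 1.91, which lies between the pooled levels of the 2 groups for each gene, although above Midgut in F1_mix for Pax3. Pax3 stood at 2.88 in Neuronal Progenitor and 6.36 in Foregut, above Midgut at 2.33, and its difference against Neuronal Progenitor was -0.45.

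The other genes of this set were Taco1, Svil, Gsg1l, Wwc1, Tspan18, Tspan9, Prex1, Adgrv1, Phldb2, E130114P18Rik and Pde4b, with log2 differences from 3.46 to 6.27. All are 95.9 to 946 kb long except Taco1 at 7.98 kb and E130114P18Rik at 16.7 kb. Taco1, a translational activator of a mitochondrial messenger, had the largest difference, at 8.38, 7.18, 3.62 and 2.58 in Midgut and 0.0551, 0.0713, 0.0413 and 0.0820 in Neuroectoderm/Glia (+6.27 ± 0.96). Pooled over suspensions, its level rose with the mitochondrial share of Midgut cells. It went from 1.31 per 10000 where that share was under 15% to 12.8 where it was at least 45%. Suspensions fell unevenly in these bands, and the rise was not split by suspension. Per 10000 mitochondrial UMIs, Taco1 lay between 12.4 and 17.1 over the bands. On that last scale Taco1 stood at 2.65 in Neuroectoderm/Glia and 31.2 in Foregut.

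The 15 genes with the largest lower calls were all at most 14.5 kb long. With CNS Neuron as partner 9 of them were still called lower, and with Neuronal Progenitor 7. They included Ndn, an imprinted gene of postmitotic neurons (-4.37 ± 1.27), the mitochondrial ribosome gene Mrpl34 (-4.30 ± 0.38, 3 Midgut UMIs against 1844), the tubulin genes Tuba1a, Tubb2b (-3.79 ± 0.97) and Tubb3, the proteasome subunit gene Psmb5 (-3.81) and the synaptic vesicle GTPase gene Rab3a (-3.70). In the order of suspensions, Ndn had 0, 0, 3 and 4 Midgut UMIs, Rab3a 0, 0, 7 and 2, and Psmb5 2, 0, 1 and 4. The size of their differences therefore depends on the 0.5 UMI added. Tubb2b stood at 2.10, 1.25, 4.50 and 5.74 in Midgut and 42.0, 41.9, 40.8 and 40.7 in Neuroectoderm/Glia. The rest were H2aw, Pafah1b3, Mab21l2, H2bu2, Cnih2, Crip2, Stmn3 and Ndufb5, between -4.00 and -3.64.

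EGFP, which was removed before clustering and so did not define the groups, is a coding sequence without introns. It stood at 4.19, 5.93, 13.4 and 5.36 per 10000 in Midgut and 14.6, 13.0, 34.0 and 15.2 in Neuroectoderm/Glia, with F1_1 highest in both and 13.7 in free RNA. The log2 difference was -1.45 ± 0.28 (SD, n = 4), lower in 4 of 4 suspensions, with a two-sided exact permutation p of 0.13, the smallest that 4 pairs allow. Midgut values rest on 32, 19, 122 and 56 UMIs, and their exact Poisson 95% intervals, which cover counting error only, run from 2.87 to 5.92, 3.57 to 9.26, 11.1 to 16.0 and 4.05 to 6.96. Per cell, EGFP in Midgut stood at 1.92%, 2.90%, 2.98% and 3.40% of the Neuroectoderm/Glia count. Ribosomal protein genes stood at 2.37%, 2.01%, 2.22% and 2.37% on the same scale. The study itself reported weak transgene expression in midgut, foregut and other cell types of an F1 embryo. It attributed this to low CAG promoter activity in those lineages and left them out of its mosaicism analysis. That explanation was not tested here.

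Cell cycle and globin transcripts were rare in both groups. Mitosis genes summed to 4.72, 4.06, 4.83 and 4.30 per 10000 in Midgut and to 0.611, 0.689, 0.619 and 0.492 in Neuroectoderm/Glia, with 20.05 in free RNA, and no member had the counts to enter. The S phase list stood at 4.98, 4.37, 4.39 and 4.40 in Midgut and 3.77, 3.74, 3.52 and 4.38 in Neuroectoderm/Glia (+0.26 ± 0.17), a direction that reversed with trimmed mean scaling (-0.12) and with mt- genes counted in the total (-0.16). Globins of the embryonic red cell stood at 9.43, 10.9, 7.90 and 5.55 in Midgut and 1.36, 1.26, 1.30 and 1.13 in Neuroectoderm/Glia, with 218 in free RNA, and 3 of 3 members that entered were higher, against 31.0% of all genes. Of the immediate early and heat shock genes, Jund alone entered and was lower (-1.97 ± 0.39). Of 20 listed nuclear long noncoding RNAs only 2 were found in the files, of which Snhg11 differed by +0.09 ± 0.16, so that class was hardly measured.

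Within Midgut, composition changed with the mitochondrial share of a cell. In 66 cells under 15%, 125 at 15 to 30%, 104 at 30 to 45% and 38 at 45% or more, the median UMIs outside mt- genes were 1289.5, 802, 571 and 352.5, and the median mitochondrial UMIs 150.5, 240, 328.5 and 360. The higher share thus came with fewer nuclear transcripts and also with more mitochondrial ones, while the oligo medians stayed between 15325 and 16466. Ribosomal protein genes rose from 2.03% to 2.35%, 3.21% and 4.64% of the UMIs outside mt- genes, and globins rose from 4.20 to 12.8 per 10000. The bands pool suspensions unevenly. F0_8, F0_9, F1_1 and F1_mix gave 10, 4, 25 and 27 cells to the lowest band and 19, 5, 9 and 5 to the highest. The globin rise was not split by suspension. Genes over 100 kb held 49.0%, 48.9%, 47.7% and 45.9%, although between cells under 30% and cells at 30% or more their share fell in F0_8, F1_1 and F1_mix and rose in F0_9, from 48.8% to 49.6%. Per cell, ribosomal protein UMIs were 32.9, 21.5, 20.6 and 19.1 and UMIs of genes over 100 kb 794, 449, 305 and 189.

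**Figure D4:**
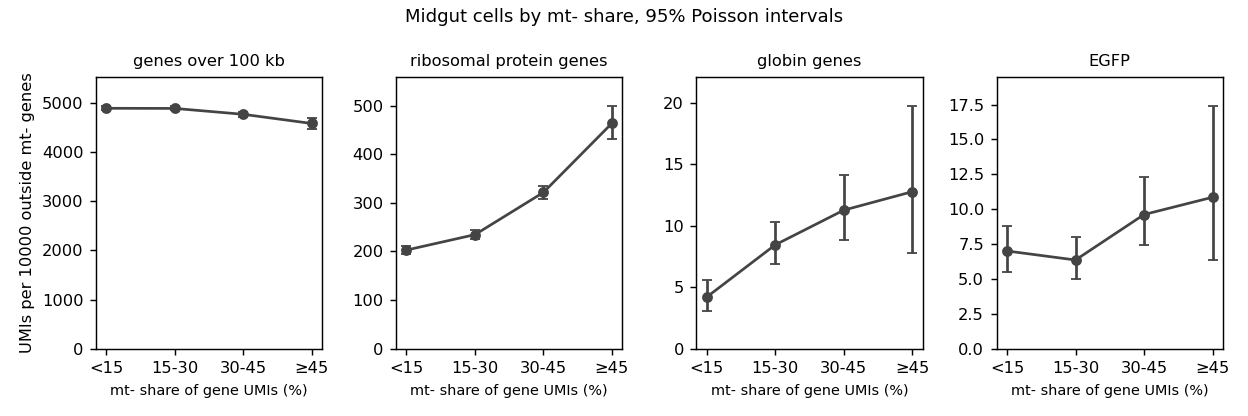
Levels in Midgut cells pooled over suspensions, as UMIs per 10000 outside mt- genes (vertical, each panel from 0), in 4 bands of the mitochondrial share of gene UMIs (horizontal), with exact Poisson 95% intervals that cover counting error only. Ribosomal protein genes rise from 2.03% to 4.64% of the UMIs and globin genes from 4.20 to 12.8 per 10000, while genes over 100 kb move from 49.0% to 45.9%.

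The rise of the ribosomal share was present in each suspension. Between cells under 30% and cells at 30% or more it went from 2.37% to 3.46% in F0_8, from 2.40% to 2.90% in F0_9, from 2.20% to 3.76% in F1_1 and from 2.05% to 3.49% in F1_mix. Every one of these values lay below the lowest Neuroectoderm/Glia suspension, 7.92%. The bands were cut on a measured share of the same cells, so these values are a description, and the part of free RNA, whose globins move with the ribosomal share, was not tested within bands.

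No Neuroectoderm/Glia band was as shallow as Midgut. In the 13 cells under 5000 UMIs outside mt- genes, with a median of 3336, genes over 100 kb held 28.2% and ribosomal protein genes 5.53%, against 22.3% and 8.57% in the next, deeper band of 415 cells and 25.3% and 8.27% in the deepest 74 cells. In the 11 Neuroectoderm/Glia cells with at least 5% mitochondrial UMIs the values were 25.8% and 6.98%. Midgut as a whole stood at 48.5% and 2.54%, and the part of depth was not tested.

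The table holds 3 other shallow cell types. Ribosomal protein genes stood at 432 ± 131 per 10000 in Foregut, 374 ± 65.9 in Hepatocyte and 823 ± 107 in Endodermal Progenitor (SD, n = 4), and Midgut was lower than each in 4 of 4 suspensions. Genes over 100 kb stood at 3937, 4170 and 3206 in the same types, and Midgut was higher than each in 4 of 4. The cytoskeleton list, at 62.1 in Foregut and 60.3 in Hepatocyte, was close to Midgut at 67.7, and Endodermal Progenitor stood at 164. The neuron markers, at 9.45, 5.08 and 17.1, were lower in all 3 than in Midgut. Against the deeply counted CNS Neuron in place of Neuroectoderm/Glia, the ribosomal difference was -2.41 (log2) and that of genes over 100 kb +1.36, so both kept their direction with another neuronal partner.

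The differences between Midgut and Neuroectoderm/Glia were compared between the founder embryos and the F1 suspensions, a contrast that did not define the cell types. An edgeR quasi-likelihood interaction over 3545 genes called 2 genes at an adjusted p under 0.05 (0.0564%), and 224 at an unadjusted p under 0.05. Glra1, a glycine receptor subunit gene, stood at 1.18, 0.936, 4.17 and 4.78 in Midgut and 0.490, 0.428, 0.434 and 0.216 in Neuroectoderm/Glia, and its difference was larger in F1 by 2.62 (edgeR adjusted p = 0.0291). Pax5, a transcription factor gene, had 0, 2, 14 and 36 Midgut UMIs and its difference was larger in F1 by 4.22 (edgeR adjusted p = 0.0291). The number of calls varied: leaving out F0_8 or F0_9 gave 0, leaving out F1_1 gave 11 and leaving out F1_mix gave 5, and without the pairing of suspensions there were 0. Each fit without a suspension leaves 1 generation with a lone suspension, which is assumed to vary like the others. On counts simulated with 1 fixed dispersion of 0.05 for every gene, this design recovered 1% of 2-fold and 23% of 4-fold changes. That dispersion was not estimated from these sums, so the share missed in these data is not known. With 2 suspensions a side, the lack of a call cannot be read as the lack of a difference between generations.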

How the data were processed

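Embryos were dissociated, tagged with CellPlex oligos, pooled and captured with a 3′ single-cell kit. The authors deposited UMI counts per gene and droplet from Cell Ranger (7.2.0 per the file headers; mm10 with EGFP) for each suspension; no source used here says whether intronic reads were counted. According to the methods, the authors removed ambient RNA and doublets, dropped EGFP before clustering, and excluded cells at 5% or more mitochondrial reads. The deposited cell table gives cell type names and the percent of mitochondrial UMIs, which the authors computed with tagging oligos in the total. Of its columns, 3 were mapped and 19 were not used.

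Raw counts were summed per suspension and cell type (8 sums). A level is UMIs per 10000 outside mt- genes. Log2 differences were paired by suspension with 0.5 UMI added. Since the Midgut sums are smaller, this addition shifts genes with few UMIs towards higher values, and with 2 UMIs added the median over genes moved from +0.46 to +0.66. A gene entered when the mean of both pooled levels corresponded to at least 20 UMIs in the Midgut sum. The rule for named genes took, in each direction, the 15 largest called differences with at least 5 UMIs in the higher type in each suspension, and for lists the 4 most counted members and any going against the median. Other list members named in the text were chosen after their values were seen. One gene that this rule names is not reported here. The members and lists were chosen with earlier results of these data known. Where a symbol had more than 1 feature, as for Atp5o and Aldoa, the one with more UMIs was used. Gene lengths came from RefSeq (GRCm38.p6) and exon numbers from an annotation of NCBIM37 matched by gene ID, with no coordinates used. Lengths were found for 99.8% of genes that entered. No barcode was shared between suspensions. EGFP and oligo counts were tested by exact sign flips. The interaction with generation was tested with edgeR 4.0.16 (R 4.3.3; DESeq2 1.42.0 as an alternative) with suspension as a block, 2 residual degrees of freedom and Benjamini-Hochberg adjustment. Samples of a suspension are paired because they come from the same embryo or mixture. The correlation of their deviations ranged from 0.0527 to 0.155, and for F0_9, F1_1 and F1_mix the Midgut sum correlated more with the Neuroectoderm/Glia sum of the other suspension of its generation (0.0685, 0.127 and 0.107). On counts simulated with 1 fixed dispersion for every gene, the fold rule called 42% of 2-fold, 92% of 4-fold and 0.927% of unchanged genes. A 2-fold change lies on the threshold of the rule, so its 42% does not measure sensitivity. The dispersion was not estimated from these sums, so 0.927% is not an error rate for the calls above.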

Additional observations from a re-analysis of the deposited data

Results flagged for a closer look

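Of 54 gap ratios computed over the 4 suspensions, 2 passed the critical value of 0.83, and chance alone passes about 1 in 20. The log2 difference of Crip2 had a gap ratio of 0.9083 and that of Pafah1b3 a ratio of 0.8501, which means that 1 suspension stood apart from the other 3. Crip2 had 1, 0, 1 and 0 Midgut UMIs in F0_8, F0_9, F1_1 and F1_mix and Pafah1b3 had 0 in F0_9, so these gaps depend on the 0.5 UMI added. Both genes were lower in Midgut in 4 of 4 suspensions.

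The difference between Midgut and Neuroectoderm/Glia differed between founders and the F1 generation for Pax5, by 4.22 on the log2 scale, and for Glra1, by 2.62, each with an edgeR adjusted p of 0.0291. DESeq2 called 0 genes in the same comparison, with 54 at an unadjusted p under 0.05, and edgeR without the pairing called 0, with 269.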

How the results depend on the processing

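Ribosomal protein genes, EGFP and oligos stayed lower and genes over 100 kb stayed higher under every alternative run for them. Leaving out 1 suspension at a time gave 721 to 1028 higher and 559 to 787 lower genes, the lowest of each without F1_mix, where fewer genes entered. It gave ribosomal differences of -1.82 to -1.65, differences of 1.07 to 1.14 for genes over 100 kb, EGFP of -1.55 to -1.33, and 0 to 11 interaction calls. Trimmed mean scaling gave 674 higher genes, -2.10 for ribosomal protein genes and 0.75 for genes over 100 kb, and counting mt- genes in the total gave 635, -2.14 and 0.71. Among called genes the share called higher was 56.2%, but 36.3% with trimmed means, 34.5% with mt- genes counted and 67.7% with 2 UMIs added. Subtracting free RNA, as profiled from barcodes of 1 to 100 UMIs, gave -2.17 for ribosomal protein genes. Midgut cells with at least 20% mitochondrial UMIs, against Neuroectoderm/Glia under 5%, gave 576 higher and 463 lower genes. A minimum of 10 UMIs gave 1699 higher genes, a minimum of 80 gave 227 higher and 237 lower, no filter 7232 and 1609, and a threshold of 2 on the log2 scale 169 and 398. The fit by edgeR with suspension as a replicate block gave 635 higher and 1038 lower genes and without the block 637 and 1036. The interaction gave 0 calls without the block, 0 with DESeq2 and 10 with no scaling. With Neuronal Progenitor as partner the values were -2.68 for ribosomal protein genes and 1.83 for genes over 100 kb, and with CNS Neuron, added after seeing the data, -2.41 and 1.36. Of the 15 named higher and 15 named lower genes, 13 and 7 kept their call with Neuronal Progenitor and 11 and 9 with CNS Neuron. Midgut cells with at least 20% mitochondrial UMIs kept 8 and 13, and a minimum of 80 UMIs kept 3 and 6. Fewer genes entered under these last settings.

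The reversals were in the S phase and mitosis lists and in 6 genes. The S phase list turned to -0.12 with trimmed means, -0.16 with mt- genes counted, -0.21 against CNS Neuron and -2.94 against Neuronal Progenitor, where mitosis was -3.51, Pax3 -0.45, Adgrv1 -0.71, Hmga2 -1.10, Cnih2 0.23, Rab3a 1.35 and Stmn3 0.085. The cause was not tested. Depth limits Midgut, whose 4 sums hold 32037 to 104554 UMIs outside mt- genes against 968591 to 1816301 in Neuroectoderm/Glia, so genes with few UMIs did not enter.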

Other observations

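Cmss1, a gene singled out after its values were seen, also had a higher level where the mitochondrial share of Midgut cells was higher. Per 10000 UMIs outside mt- genes it stood at 6.07, 11.7, 14.9 and 19.8 from the lowest to the highest band of that share, and at 1.96 in Neuroectoderm/Glia, but per 10000 mitochondrial UMIs it fell over the bands, from 57.6 to 39.6, 25.7 and 19.6, where Taco1 stayed between 12.4 and 17.1. Taco1 stood at 5.05 and 8.27 in the middle bands, at 7.61 in Foregut, 3.83 in Hepatocyte and 16.4 in Endodermal Progenitor, the other shallow types, and at 0.0259 to 0.238 in the remaining types apart from Midgut. The band values of Cmss1 and Taco1 are pooled over suspensions, which fell unevenly in the bands, and were not split by suspension. Lars2, a mitochondrial leucyl-tRNA synthetase gene, stood at 1.74 in Midgut and 0.355 in Neuroectoderm/Glia. The cause was not tested.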
